A study of Mus musculus with 11 samples.

Results

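Adcy3 and Adcy5 encode adenylate cyclases, the membrane enzymes that make cyclic AMP (cAMP) from ATP. They are 2 of the 417 gene rows in a table of spleen dendritic cell RNA from mice with a uromodulin mutation and from wild type littermates. Both rows were chosen by gene symbol, with their values already known, and every row of the table had been selected by the authors on the comparison itself, since the smallest absolute fold in the table was 2.00 and the largest unadjusted p was 0.0493. The difference between the genotypes is therefore described here without a test. The mutant group held 5 libraries from mice carrying 1 copy of UMOD C105F, a cysteine to phenylalanine change (C105F/+, numbered 2 to 6), and the wild type (WT) group held 6 libraries from littermates (numbered 1 to 6). The change was made by CRISPR/Cas9 editing of C57BL/6J embryos and is also written C106F in the labels. Mice of both groups were killed at 12 to 16 weeks. The uromodulin change is carried by the whole animal and was not directed to dendritic cells. Spleens were digested with collagenase, dendritic cells of all subsets were enriched by magnetic removal of other cells, and strand-aware libraries were prepared after capture on oligo(dT) beads. The design text names the response of dendritic cells to circulating uromodulin after kidney injury as the question, but the labels give no injury, sex or batch for a mouse. Nor is it stated whether every library is a separate animal, and errors and p-values describe the spread among libraries only. WT 4 stood apart from the other WT libraries, in its immediate-early genes and over the 417 rows together. It correlated with them at 0.76 to 0.81 in log2(scaled count + 1), where they correlated with each other at 0.87 to 0.96. Values without WT 4 are given beside the results that it moved most.

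Hormone and transmitter receptors act on adenylate cyclases through G proteins. Gs raises their activity and Gi lowers that of several of them, Adcy5 included. cAMP then activates protein kinase A, the exchange factor EPAC1 and cyclic nucleotide-gated channels, phosphodiesterases break it down, and the transcription factor CREB, phosphorylated by protein kinase A, turns on immediate-early genes. In dendritic cells, agents that raise cAMP, such as prostaglandin E2, are known to alter maturation, cytokine release and migration. Adcy3 is best known as the cyclase of olfactory neurons and of primary cilia, and Adcy5 as the main cyclase of the striatum and a major one of the heart.

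Adcy3 (Entrez gene 104111) lies on the plus strand at chr12:4133116-4213525 and Adcy5 (Entrez gene 224129) on the plus strand at chr16:35154494-35305743, in RefSeq coordinates of GRCm38.p6, the assembly of the mm10 build named by the submitters. In GENCODE M21 on the same build, the transcript with the longest coding sequence had 22 exons and 3435 coding bases for Adcy3, and 21 exons and 3786 coding bases for Adcy5. Because related cyclases can share reads, the stretch around the longest run of bases common to the pair is shown. It lies in the coding sequence of the first catalytic domain, in exons 5 and 6 of Adcy3 (chr12:4194900-4195167) and exons 4 and 5 of Adcy5 (chr16:35267214-35268991). Each line gives 114 spliced bases of the plus strand, 5′ to 3′, and the capitals mark that run.
Adcy3: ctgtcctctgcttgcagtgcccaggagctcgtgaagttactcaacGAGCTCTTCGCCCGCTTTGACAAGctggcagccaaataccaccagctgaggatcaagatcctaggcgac
Adcy5: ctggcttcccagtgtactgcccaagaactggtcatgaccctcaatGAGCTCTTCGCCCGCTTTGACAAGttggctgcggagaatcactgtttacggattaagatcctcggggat
The aligned lines were identical at 80 of 114 positions (70.2%), and the shared run was 24 bases long. Against the other cyclases, the longest shared run was 20 bases for Adcy3, with Adcy1, Adcy4 and Adcy6, and 29 bases for Adcy5, with Adcy6. None of the 6422 windows of 50 bases in Adcy3 transcripts, and none of the 7135 in Adcy5 transcripts, occurred in a transcript of any other annotated gene. A read that covers 50 bases of either transcript without error is thus not shared with a paralog. Adcy3 also overlaps Cenpo, a gene for a centromere protein on the opposite strand, over 17522 bases, and 1380 of the 6246 exonic bases of Adcy3 are exonic in Cenpo too. The sources used here do not say whether reads were counted by strand, so reads of Cenpo in that stretch cannot be told apart from those of Adcy3. Adcy5 shared no exonic base with another annotated gene.

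Adcy3 was 2.46-fold higher in C105F/+ than in WT libraries, and each C105F/+ library lay above each WT library. In C105F/+ libraries 2 to 6 the deposited read counts were 420, 161, 103, 212 and 157, against 41, 84, 78, 51, 94 and 74 in WT libraries 1 to 6. Divided by the authors' size factors, which run from 0.615 in WT 1 to 1.98 in C105F/+ 2 and give relative depth, these became scaled counts of 212, 153, 112, 227 and 190 in C105F/+ libraries, against 66.7, 80.7, 89.7, 53.4, 79.2 and 66.3 in WT libraries. The groups did not overlap, and the lowest C105F/+ library (C105F/+ 4) came closest to the highest WT library (WT 3). That neighbouring pair had overlapping 95% exact Poisson intervals, 91.6 to 136 for C105F/+ 4 and 70.9 to 112 for WT 3, which cover counting error only. The mean was 179 ± 46.6 scaled counts in C105F/+ libraries and 72.7 ± 13 in WT libraries (SD, n = 5 and 6). Fitted with edgeR, the difference was 1.30 on the log2 scale (SE 0.37). In the authors' deposited table the fold was 2.46, with a log2 SE of 0.24, a p of 5.75e-08 and an adjusted p of 7.93e-05. That p was number 7 of 417 when rows were ordered from the smallest, while the fold was number 280 from the largest.

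Within each group the SD of Adcy3 was smaller than the distance between the group means, a distance on which the row had been selected. Its coefficient of variation was 26.1% in C105F/+ libraries and 17.9% in WT libraries, where counting alone would give 7.28% in C105F/+ and 12.2% in WT. The highest library was 2.02 times the lowest in C105F/+ and 1.68 times in WT. In FPKM, a level scaled to transcript length and sequencing depth, Adcy3 was at 0.980, 0.580, 0.462, 1.03 and 0.832 in C105F/+ libraries, against 0.213, 0.290, 0.327, 0.218, 0.312 and 0.269 in WT libraries. The order of the groups was the same on this scale, with means of 0.776 ± 0.247 FPKM in C105F/+ and 0.272 ± 0.0476 FPKM in WT (SD, n = 5 and 6). In these bulk samples, more cells that express a gene and more RNA per cell cannot be told apart.

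Adcy5, a cyclase that is inhibited by both Gi and calcium, had fewer reads, a wider spread and groups that overlapped. In C105F/+ libraries 2 to 6 it had 57, 80, 24, 38 and 35 reads, against 7, 37, 27, 3, 21 and 22 reads in WT libraries 1 to 6. The scaled counts were 28.8, 75.9, 26.1, 40.7 and 42.3 in C105F/+ libraries, against 11.4, 35.5, 31.1, 3.14, 17.7 and 19.7 in WT libraries. C105F/+ 3, 5 and 6 lay above every WT library, whereas C105F/+ 2 and C105F/+ 4 lay below WT 2 and WT 3. The mean was 42.8 ± 19.8 scaled counts in C105F/+ libraries and 19.8 ± 12.1 in WT libraries (SD, n = 5 and 6), and the edgeR difference was 1.10 on the log2 scale (SE 0.58, 2.15-fold). In the authors' deposited table Adcy5 had a fold of 2.15, a log2 SE of 0.55, a p of 0.0432 and an adjusted p of 0.24. It stood near the limits of the table, with the fold at number 349 and the p at number 397 of 417, and 21 rows, Adcy5 included, had a p at least as large.

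**Figure D1:**
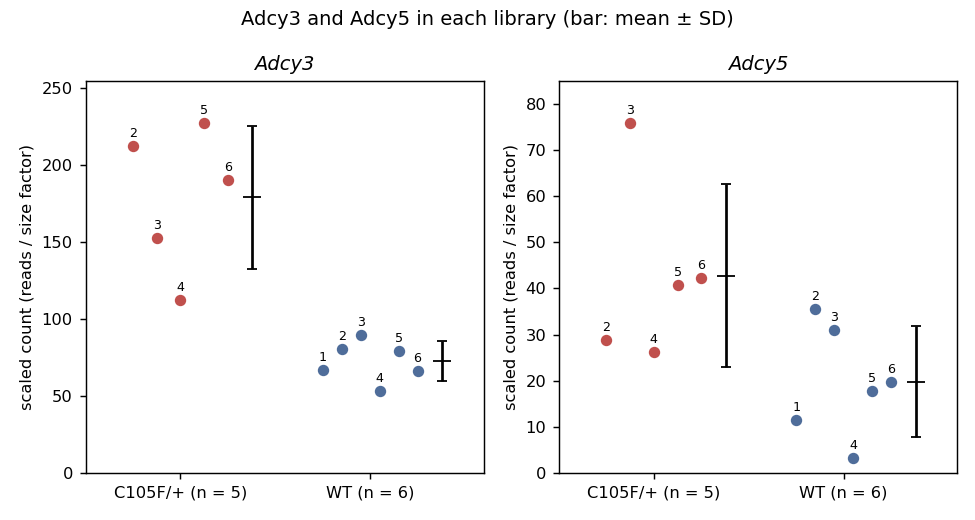
Scaled counts (reads divided by the size factor) of Adcy3 and Adcy5 on the vertical axes in each C105F/+ (left) and WT (right) library, numbered as in the labels, with the mean ± SD beside each group. For Adcy3 the lowest C105F/+ library (112) stands above the highest WT library (89.7), while for Adcy5 the groups overlap and C105F/+ 3 (75.9) is highest.

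A few libraries set the size of the Adcy5 difference. Its coefficient of variation was 46.4% in C105F/+ libraries and 61.0% in WT libraries, where counting alone would give 15.1% in C105F/+ and 23.0% in WT, and the highest library was 2.90 times the lowest in C105F/+ and 11.3 times in WT. The extremes were C105F/+ 3, with 80 reads and a 95% interval of 60.2 to 94.4 scaled counts, and WT 4, with 3 reads and an interval of 0.648 to 9.18. Without C105F/+ 3 the Adcy5 difference was 0.79 on the log2 scale (1.73-fold), and without WT 4 it was 0.88 (1.84-fold). Without WT 1, the other low WT library, it was 0.99 (1.99-fold). With C105F/+ 3 and WT 4 both left out, an alternative chosen after seeing the data, it was 0.57 (1.48-fold). Under the same omission Adcy3 stayed at 1.27 on the log2 scale (2.42-fold). In FPKM, Adcy5 was at 0.122, 0.270, 0.101, 0.168 and 0.169 in C105F/+ libraries, against 0.0339, 0.120, 0.103, 0.0119, 0.0644 and 0.0721 in WT libraries. On that scale C105F/+ 2 also lay above every WT library, if barely, and C105F/+ 4 alone fell among the WT values.

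Of the pair, 1 gene, Adcy3, was among the 88 higher rows with a deposited adjusted p under 0.05 (29.8% of the 295 rows with an adjusted p), while 23 rows (7.8%) were lower at that threshold. Adcy3 was also among the 42 rows (10.1% of 417) in which every C105F/+ library lay above every WT library, and Adcy5 was not. These rows were selected on the difference, and nothing is read from those shares. The size of either difference depended on how the libraries were scaled. Size factors computed over the 417 rows by median-of-ratios moved the median row by -0.76 on the log2 scale and gave 1.46-fold for both Adcy3 and Adcy5. TMM factors over the same rows moved the median row by -0.97 and gave 1.28-fold for Adcy3 and 1.25-fold for Adcy5. Both kinds of factor assume that most rows do not differ, and here 253 rows were higher and 164 lower by construction.

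Adcy3 was the more abundant cyclase of the pair in each of the 11 libraries. Per length, its FPKM was 8.06, 2.15, 4.56, 6.11 and 4.93 times that of Adcy5 in C105F/+ libraries 2 to 6, against 6.29, 2.42, 3.17, 18.4, 4.85 and 3.73 times in WT libraries 1 to 6. The widest ratio, in WT 4, rests on 3 Adcy5 reads, and the narrowest, in C105F/+ 3, stands where Adcy5 was highest. The mean within-library difference in log2(FPKM + 0.01) was 2.11 ± 0.69 (SD, n = 11), which is 4.32-fold, and an exact two-sided sign-flip permutation test gave p = 0.000977, the smallest that 11 libraries allow. Within genotypes the difference was 2.17 ± 0.69 in C105F/+ libraries (n = 5, exact sign-flip permutation p = 0.0625) and 2.06 ± 0.76 in WT libraries (n = 6, p = 0.0313), in each case the smallest p possible. Without WT 4 the WT difference was 1.80 ± 0.45 (n = 5). The genotypes differed in this excess by less than the spread of the libraries. Since both rows were selected on their difference between the genotypes, nothing is read from that likeness. The choice of these genes did not use the comparison of 1 gene with the other, although their values were already known. Reads of the overlapping gene Cenpo, if counted as Adcy3, would raise only the Adcy3 side, and their share is not known.

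**Figure D2:**
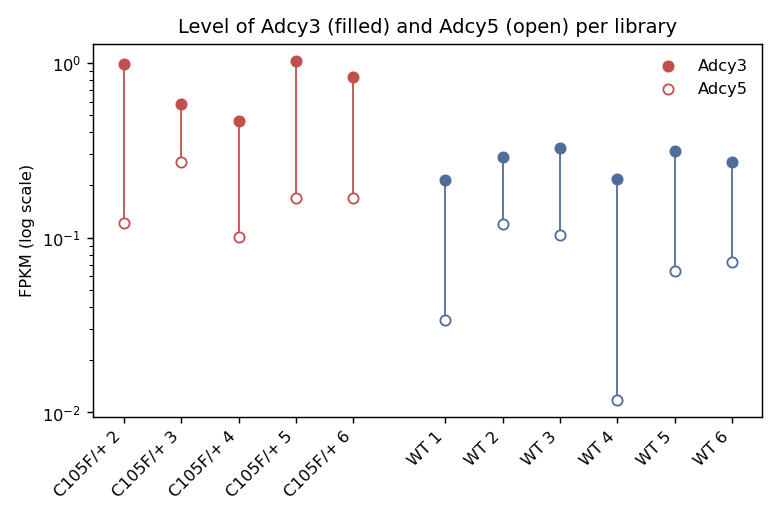
FPKM on a log axis for Adcy3 (filled) and Adcy5 (open) in each library, joined by a line, with C105F/+ libraries on the left and WT libraries on the right. The filled point is above the open point in all 11 libraries, and the gap is widest in WT 4 (18.4 times) and narrowest in C105F/+ 3 (2.15 times).

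The likeness of other rows to the cyclases across libraries is given next. Likeness of 2 rows was measured as the root mean square difference of log2(scaled count + 1) after centring each row on its mean over the 11 libraries, among 280 other rows with a mean of at least 20 scaled counts. Since each compared row shares the libraries and the selection on genotype, these values are descriptions. Closest to Adcy3 were Chdh (0.23), which encodes the choline dehydrogenase of mitochondria, Ldlrad3 (0.31), a membrane protein with a low density lipoprotein receptor domain, Hrh2 (0.31), the histamine H2 receptor, and Adgrl2 (0.33), an adhesion receptor of the latrophilin family. The median distance from Adcy3 over all compared rows was 1.02, and Adcy5 was number 93 in the order, at 0.74. From the side of Adcy5, Adcy3 was number 11 at that distance, and WT 4, where Adcy5 had 3 reads, made up 43.3% of the summed squared difference between them. Chdh averaged 751 ± 226 scaled counts in C105F/+ libraries and 300.5 ± 69.3 in WT libraries, and Adgrl2 averaged 218 ± 75.0 in C105F/+ and 79.5 ± 15.6 in WT (SD, n = 5 and 6). Ldlrad3 averaged 783 ± 285 in C105F/+ and 378 ± 156 in WT. Closest to Adcy5 were Rasl11b (0.51), a small GTPase of the Ras family, the zinc finger transcription factors Egr2 (0.53) and Klf4 (0.60), and Itih5 (0.63), which encodes a heavy chain of an inter-alpha-trypsin inhibitor. These distances were larger than those around Adcy3, with a median of 1.39 over all rows. Rasl11b averaged 72.6 ± 8.70 scaled counts in C105F/+ libraries and 35.8 ± 16.2 in WT libraries. Klf4 averaged 7884 ± 2765 in C105F/+ and 3087 ± 1507 in WT, and Itih5 averaged 174 ± 100.5 in C105F/+ and 67.2 ± 21.9 in WT. All 4 rows were, like Adcy5, lowest in WT 4 relative to their own means. Without WT 4, an alternative chosen after seeing the data, the order changed. Spry1 (0.44), an inhibitor of receptor tyrosine kinase signalling, and Thnsl2 (0.48) then stood nearest to Adcy5, before Rasl11b (0.49) and Egr2 (0.55), with Adcy3 next at number 5 (0.56), Itih5 at number 6 and Klf4 at number 7. Nearest to Adcy3 were then Klf4 (0.23), Chdh (0.24), the ephrin receptor gene Epha2 (0.25) and Fos (0.26), with Adgrl2 at number 6, Ldlrad3 at number 14, Hrh2 at number 16 and Adcy5 at number 88 (0.56).

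**Figure D3:**
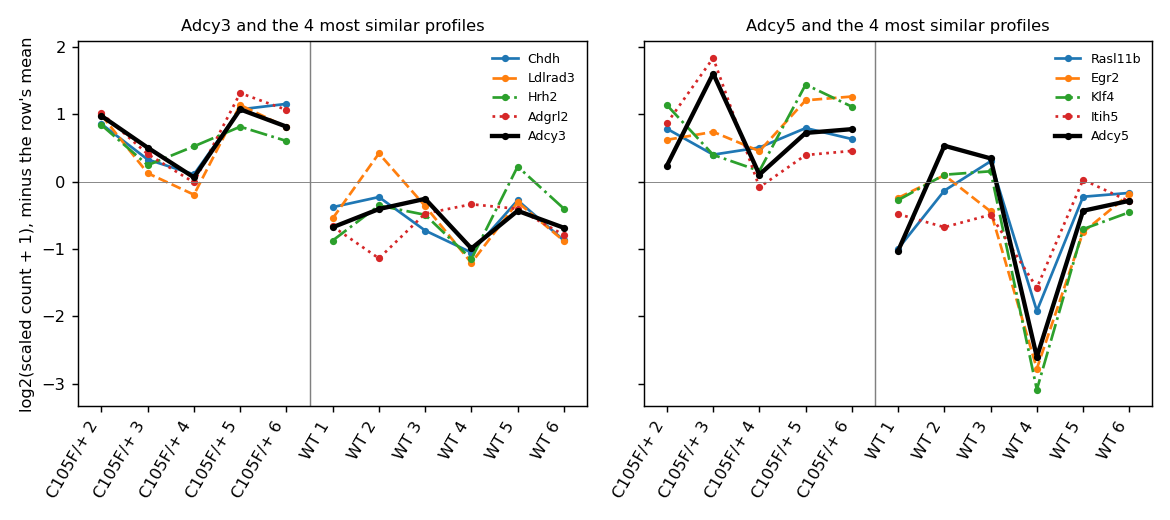
Log2(scaled count + 1) minus the row's own mean, by library, for Adcy3 (left panel) and Adcy5 (right panel) in black and for the 4 rows most like each in colour, with C105F/+ libraries before the vertical line and WT libraries after it. The rows around Adcy3 keep close to it (distances of 0.23 to 0.33), and those around Adcy5 lie farther off (0.51 to 0.63) and share its low value in WT 4.

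The rest of the cAMP pathway was looked up in 8 lists holding 209 genes, of which 11 were rows of the table, 10 higher and 1 lower in C105F/+. The median log2 fold of these 11 rows was 1.33, beside 1.10 over all 417 rows. By the authors' deposited table, Adcy3, Hrh2, Rapgef3, Sik1 and Egr2 (5 of the 10 rows with an adjusted p, all higher) passed an adjusted p of 0.05, where 29.8% of all such rows passed as higher, and 0 were lower at that threshold. Since the rows were selected on this contrast, nothing is read from that share. At the level of synthesis, Adcy3 and Adcy5 were the only rows among 10 cyclases, and none of 19 G protein subunits was a row. Genes without a row were not analysed here, so their level is not known.

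Among 38 receptors that couple to Gs, 3 were rows. Hrh2, the receptor through which histamine raises cAMP, had scaled counts of 419, 277, 337, 412 and 356 in C105F/+ libraries 2 to 6, against 127, 182, 166, 104.7, 273 and 177 in WT libraries 1 to 6. The groups did not overlap, but the lowest C105F/+ library (C105F/+ 3) and the highest WT library (WT 5) were nearly level, and in FPKM they crossed, at 1.81 in C105F/+ 3 and 1.87 in WT 5. The edgeR difference of Hrh2 was 1.07 on the log2 scale (SE 0.34), and the adjusted p in the authors' deposited table was 0.00414. Gpr174, a lysophosphatidylserine receptor abundant in lymphocytes, averaged 137 ± 89.5 scaled counts in C105F/+ libraries and 35.2 ± 32.1 in WT libraries (SD, n = 5 and 6), with an adjusted p of 0.0627 in the authors' deposited table. Its values split within each genotype, since C105F/+ 2, 5 and 6 lay between 192 and 214, C105F/+ 3 and 4 at 30.4 and 47.9, and WT 4 at 98.4. Without WT 4 the Gpr174 fold was 6.05, against 3.88 with it. Mc1r, the melanocortin 1 receptor, had 0 reads in each C105F/+ library, where a count of 0 allows up to 3 reads in each (a one-sided limit), and 2 to 6 reads in WT libraries. The authors gave Mc1r no adjusted p, and it did not pass edgeR's filter on low counts. None of 36 Gi-coupled receptors, 25 cyclic nucleotide phosphodiesterases or 24 subunits, inhibitors and anchors of protein kinase A was a row.

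Among 32 other effectors of cAMP, Rapgef3 and Sik1 were rows. Rapgef3 encodes EPAC1, which cAMP turns on to activate the GTPase Rap1. It had scaled counts of 194, 77.8, 87.1, 152 and 137 in C105F/+ libraries, against 16.3, 62.4, 70.2, 29.3, 74.2 and 55.6 in WT libraries. C105F/+ 3 stood just above WT 5, and the groups did not overlap. The edgeR difference was 1.33 (SE 0.47), and the adjusted p in the authors' deposited table was 0.0395. Sik1, a salt-inducible kinase that is switched on by CREB and restrains CREB's coactivators, averaged 8049 ± 2516 scaled counts in C105F/+ libraries and 3155 ± 1081 in WT libraries (SD, n = 5 and 6). Each C105F/+ library again lay above each WT library, with an edgeR difference of 1.35 (SE 0.37) and an adjusted p of 0.00295 in the authors' deposited table.

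Of 25 immediate-early and other targets of CREB, 4 were rows, all transcription factors and all higher in C105F/+. These genes also respond to other signals, among them MAP kinases. Egr2 averaged 3341 ± 843 scaled counts in C105F/+ libraries and 1278 ± 573 in WT libraries (SD, n = 5 and 6), with an edgeR difference of 1.39 (SE 0.42) and an adjusted p of 0.0236 in the authors' deposited table. Fos averaged 35967 ± 9735 in C105F/+ and 14254 ± 7074 in WT, with a difference of 1.34 (SE 0.68). WT 4, the library with the fewest Adcy5 reads (3), had 164 scaled counts of Fos, where the other WT libraries had 14776 to 18979. WT 1, with the next fewest Adcy5 reads (7), had the highest Fos among WT libraries, at 18979. A link between Adcy5 and Fos was not tested. Fosb, Egr2 and Egr3 were lowest in WT 4 as well, and the edgeR difference was 1.66 (SE 0.76) for Fosb and 1.09 (SE 0.51) for Egr3. The adjusted p in the authors' deposited table was 0.248 for Fos, 0.181 for Fosb and 0.198 for Egr3. Without WT 4, the ratio of group means was 2.11 for Fos, 2.64 for Fosb, 2.26 for Egr2 and 1.80 for Egr3, against 2.52, 3.16, 2.61 and 2.13 with it. The same omission gave a ratio of 2.34 for Adcy3, against 2.46 with WT 4.

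**Figure D4:**
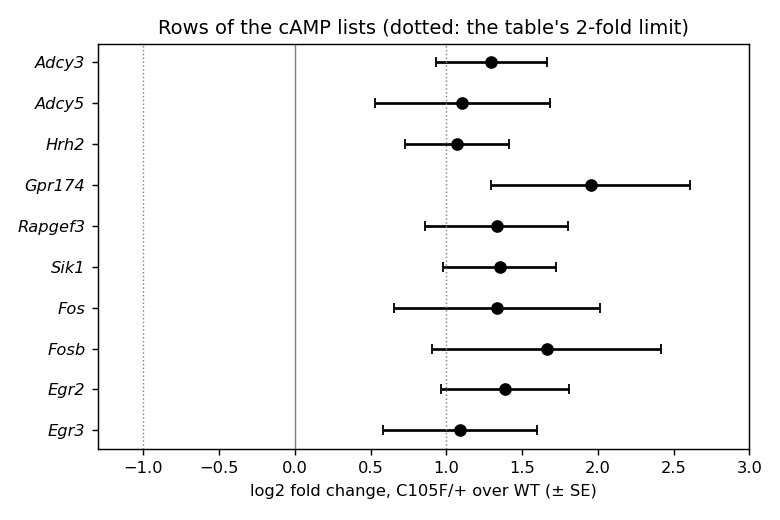
Log2 fold change of C105F/+ over WT with its SE from edgeR for the 10 rows of the cAMP lists that passed the filter on low counts, ordered by role from the cyclases down to the CREB targets. All points lie to the right of the dotted line at the 2-fold limit by which the table was selected. In this fit the SE is smallest for Hrh2 (0.34), while the authors' deposited log2 SE was 0.24 for Adcy3 and 0.25 for Hrh2.

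As a description of their promoters, the RefSeq windows from 250 bases before to 50 bases after each start (GRCm38.p6) were searched on both strands for the cAMP response element TGACGTCA and for its half-site TGACG, which every full element contains. Windows were found for 9 of the 11 rows. Sik1 and Egr3 had none and were not searched. None of the 3 windows of Adcy3 and Adcy5 held either motif. Among the other rows with windows, none held the full element, which is in 1.79% of 32851 promoters. The half-site, which is in 20.8%, was held by 4 of them (Rapgef3, Fos, Fosb and Egr2). Those shares are per window, and Egr2 had 5 windows, of which windows 1 and 2 held no half-site.

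Of 38 rows that are cell type markers, 37 were higher and 1, the mast cell protease gene Mcpt1, was lower in C105F/+. Over all 417 rows, 253 were higher and 164 lower. By the authors' deposited table, 15 higher and 0 lower rows of the 37 with an adjusted p passed 0.05. Over all rows with an adjusted p, 29.8% passed as higher and 7.8% as lower. Since the rows were selected on this contrast, nothing is read from these counts. The 15 rows were 5 in the plasma cell list, 3 in the B cell list, 2 in the T cell list and 1 in each of 5 other lists. None was among monocytes and macrophages or erythroid cells and megakaryocytes. Of 10 cell type lists, the dendritic cell list had 1 row of 20 genes, Itgae, the integrin chain CD103, at 843 to 3677 scaled counts in C105F/+ libraries and 99.5 to 896 in WT libraries, so the identity of the cells could not be checked from the table beyond that gene. Summed scaled counts of 6 plasma cell genes of 13 were 19099 to 216756 in C105F/+ libraries and 21186 to 32104 in WT libraries, and those of 6 B cell genes of 14 were 1377 to 11986 in C105F/+ and 1240.3 to 4987 in WT. For 4 T cell genes of 17 the range was 250.4 to 1351 in C105F/+ and 155 to 227 in WT, and for 5 NK cell genes of 13 it was 55.0 to 973 in C105F/+ and 53.8 to 281 in WT. The lymphocyte sums were thus widely spread among C105F/+ libraries. For 5 neutrophil genes of 14 the range was 1152 to 28216 in C105F/+ and 1014 to 7603 in WT, and for 4 genes of 14 of basophils, eosinophils and mast cells it was 375 to 8372 in C105F/+ and 340.4 to 1284 in WT. For 2 monocyte and macrophage genes of 16 it was 2000.4 to 10765 in C105F/+ and 320.4 to 5266 in WT. The 3 erythroid and megakaryocyte genes of 13 summed to 516 to 4302 in C105F/+ and 212 to 1441 in WT, and the 2 endothelial and stromal genes of 15 to 569 to 1689.8 in C105F/+ and 128 to 793 in WT. The NK cell receptor gene Ncr1 and the eosinophil gene Ear6 were at 0 in 1 C105F/+ library and in 5 WT libraries each, Ear1 was at 0 in 2 C105F/+ libraries, Prf1 in 1 library of each genotype and Bcl11b in 1 WT library. WT 4 alone set several WT limits. Without it the WT libraries ran to 1639.6 for B cells, 102 for NK cells, 4857 for neutrophils and 641 for basophils, eosinophils and mast cells. The lowest WT values were then 460.0 for Itgae, 1639.6 for monocytes and macrophages, 499 for erythroid cells and megakaryocytes and 380.3 for endothelium and stroma.

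In C105F/+ 2, 5 and 6 the sums of all 10 lists lay above every WT library, and the same 3 libraries had the highest Adcy3, at 212, 227 and 190 scaled counts. In C105F/+ 4 this held for 5 lists (7 without WT 4), and in C105F/+ 3 for the T cell list alone, with 8 lists within the WT range and the plasma cell list below it. Adcy3 was lower in this pair, at 112 in C105F/+ 4 and 153 in C105F/+ 3, but both values were above every WT library. Adcy5 followed another order, with its highest value of all 11 libraries in C105F/+ 3 (75.9) and a value within the WT range in C105F/+ 2 (28.8). The part of other cells in the difference between the genotypes was not tested.

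**Figure D5:**
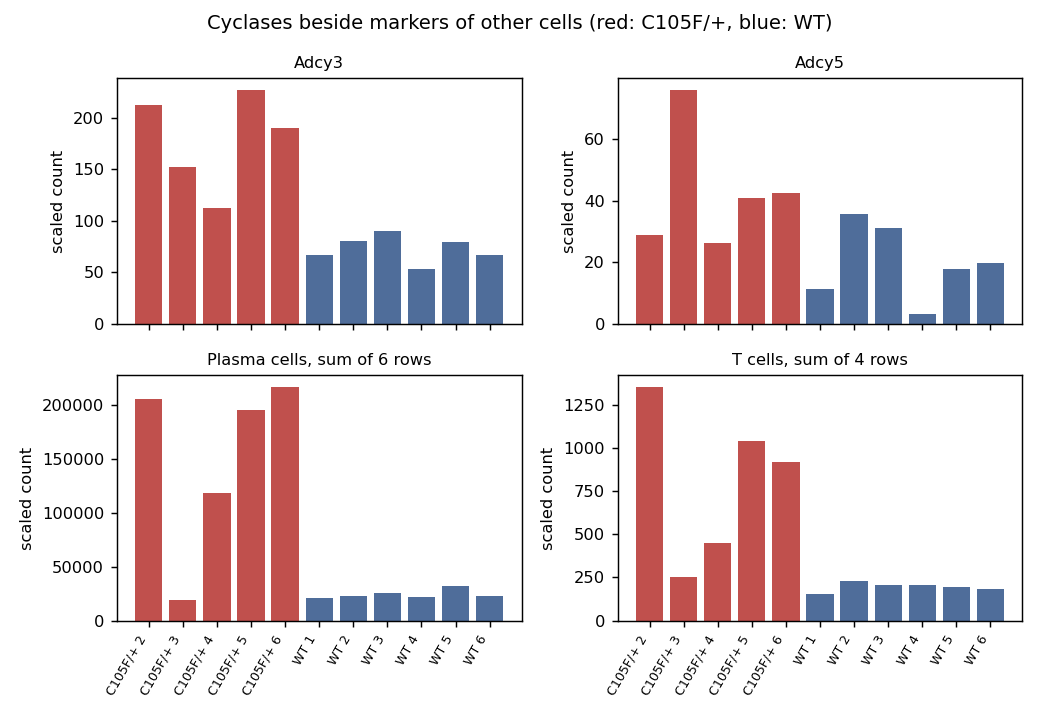
Scaled counts of Adcy3 and Adcy5 (upper panels) and summed scaled counts of the plasma cell and T cell markers (lower panels) in each library, C105F/+ in red on the left and WT in blue on the right, with bars from 0. C105F/+ 3 has the highest Adcy5 (75.9) and, with 19099 scaled counts, the lowest plasma cell sum.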

How the data were processed

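RNA-seq of spleen dendritic cells from 5 C105F/+ and 6 WT libraries was used, grouped by sample title. The submitters' processing notes list the mm10 build, the aligners HISAT2 2.1.0 and Bowtie2 2.3.4.1, DESeq2, StringTie 2.1.3b, Trimmomatic 0.38 and FastQC 0.11.7, without settings. The authors deposited 1 table of 417 rows with raw read counts, FPKM and log2 normalized values per library, per the file headers. How the log2 values were transformed is not stated in the labels. The signed fold (a score), its log2 standard error, the mean scaled count over all libraries (a signal), the p-value and the adjusted p-value are the authors' own, per the file headers. The members and gene lists were chosen with earlier results of these data known.

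Size factors were recovered from the counts and the deposited mean (largest relative error 4.4e-15), since counts over selected rows (195414 to 1198500 per library) are not a depth. Counts were fitted with edgeR 4.0.16 (R 4.3.3, quasi-likelihood, filterByExpr, 321 rows kept), and the SE is the absolute log2 fold divided by the square root of F. The fitting step was tested on simulated data in which every row had the same spread and no row was selected. That test does not vouch for the SEs of the selected rows here. DESeq2 1.42.0, other scalings, units, filters, a replicate block and leaving out each library were tried. Intervals are 95% exact Poisson. Permutation tests used Python 3.11.15. Named genes are Adcy3 and Adcy5, all rows of the cAMP lists, the 4 rows most like each cyclase (predicted genes left out) and the most abundant row of each cell type list. The last set was Itgae, Cd79a, Jchain, Cd28, Il2rb, Mpo, Prg2, Ace, Alas2 and Flt1, which enter the text through their lists' sums. No column of per-sample values was left unmapped.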

Additional observations from a re-analysis of the deposited data

Results flagged for a closer look

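Of 28 groups of values examined, 6 held a library that stood far from the rest of its genotype. The groups share libraries, and some hold the same gene in another unit, so this count was not set against chance. WT 4 accounted for 5 of them. Its Adcy3 to Adcy5 FPKM ratio was 18.4, against 2.42 to 6.29 in the other WT libraries. In WT 4, Fos had 164 scaled counts (14776 to 18979 in the other WT libraries), Fosb 44.0 (9315 to 14224) and Egr3 167 (2047 to 2658), while Gpr174 had 98.4 (10.6 to 29.9). In WT 3, Mc1r had 6.90 scaled counts, from 6 reads, against 2.09 to 3.84 in the other WT libraries.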

How the results depend on the processing

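The spread of the libraries was taken as the SD of log2(scaled count + 1) within genotypes, pooled, at 0.34 for Adcy3 and 0.94 for Adcy5. The C105F/+ over WT difference of Adcy3 (1.30 on the log2 scale) kept its direction under all 19 alternatives and changed by less than that spread under 16. It moved beyond that spread with median-of-ratios factors over the deposited rows (0.55), with TMM factors (0.36) and on the deposited log2 normalized values (0.61). Leaving out 1 library at a time gave 1.20 to 1.43. The Adcy5 difference (1.10) also kept its direction under 19 alternatives and changed by less than its wider spread. It was 0.79 to 1.35 with 1 library left out, 0.55 with median-of-ratios factors, 0.32 with TMM, 0.28 on the log2 normalized values and 1.33 in FPKM. Both rows were selected on this contrast, so nothing is read from a kept direction. The log2 normalized values had a narrower spread of their own. On that scale Adcy5 was at 4.40 in WT 4 and 5.28 in C105F/+ 3, where its scaled counts were 3.14 and 75.9. Low counts are thus drawn together there, and differences on that scale cannot be read as log2 folds. Their SD was 0.217 in C105F/+ and 0.109 in WT for Adcy3, and 0.195 in C105F/+ and 0.182 in WT for Adcy5. Differences on that scale were not set against these SDs. DESeq2 gave 1.30 for Adcy3 and 1.11 for Adcy5. With a replicate block the differences were 1.25 for Adcy3 and 1.18 for Adcy5. No pairing by number was seen: same-numbered libraries correlated at -0.09 to 0.12, and 1 of 5 correlated best with its own number. So few libraries and selected rows cannot exclude a pairing. The excess of Adcy3 over Adcy5 in log2 FPKM held under all 14 alternatives, at 1.99 to 2.22 with 1 library left out, 1.42 with a pseudocount of 0.1 and 0.41 with 1. Of the cAMP rows, 3 had a deposited adjusted p under 0.01 and 6 under 0.1. Adcy5 had 3 to 80 reads per library.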
